A study of Sycon ciliatum with 26 samples.

Results

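Late regeneration of the calcareous sponge Sycon ciliatum was examined by comparing structures collected on days 21 to 24 after dissociation with structures collected on days 16 to 18. The labels give the stage name JUV to the later window and PJUV to the earlier one. The comparison rests on 5 of the 26 mRNA libraries of the series, chosen by their labels, with 2 libraries of days 21 to 24 and 3 of days 16 to 18. Earlier levels were taken from 4 libraries of days 10 to 14, which the labels number 2 to 5, 6 each of days 6 to 8 and days 3 to 4, and 2 each of day 2 and day 1. The level in the adult comes from 1 library, made from the dissociated cells of a whole animal. All other libraries are of regenerating structures that grew from dissociated cells. The labels name no strain, treatment or genotype and do not say which libraries share a parent animal, so p-values measure the spread between these libraries, which may be partly technical.

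Cells of a dissociated sponge can aggregate and rebuild a body. In calcareous sponges the rebuilt animal again has an outer epithelium of pinacocytes, inner surfaces lined by flagellated choanocytes that drive the water current, and calcite spicules secreted by sclerocytes. The genes that mark these cell types could not be looked up in these data, because the tables carry bare gene IDs: 0 of the 35307 IDs matched a gene of the RefSeq table for the assembly ocSycCili1.1. Genes are therefore described by their ID, level and time course, and a gene may be split over several IDs.

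The libraries of days 21 to 24 held 12008134 and 15395912 counts, and those of days 16 to 18 held 11863223 to 12728111. Replicates 1 and 2 of days 21 to 24 had a Spearman correlation of 0.974 across the 23995 tested genes, and replicates 1 and 2 of days 16 to 18 had one of 0.978. Replicate 3 of days 16 to 18 stood apart from the others of its window, with correlations of 0.952 and 0.948. Among the 9 libraries of days 10 to 24, its highest value was 0.957, found both with replicate 1 of days 21 to 24 and with replicate 4 of days 10 to 14, the only other one of them whose sample set label is 3. At days 10 to 14 the titles and the sample set labels differ: the titles number the libraries 2 to 5, as done here, and the set labels 1 to 4. The library titled 3 there correlated at 0.928 with replicate 3 of days 16 to 18. The correlations are across genes, which are not replicates. No pair of libraries of either window was a second count of the same library (lowest chi-square per gene 15.05).

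Few genes changed between days 16 to 18 and days 21 to 24 beyond the spread of the whole time course. In edgeR's quasi-likelihood test over all 25 regenerating libraries, 11 of 23995 genes (0.0458%) had a Benjamini-Hochberg adjusted p under 0.05, of which 9 rose (0.0375%) and 2 fell (0.00834%) at days 21 to 24. An unadjusted p under 0.05 was found for 1706 genes (7.11%), and DESeq2 called 80 genes, 53 higher and 27 lower, among them all 11 of the edgeR genes. Fewer genes were called by edgeR whenever a library was left out, with 4, 3 and 4 without replicates 1, 2 and 3 of days 16 to 18. Such a fit has fewer libraries to test with, so a lost call need not mean a smaller difference. Without replicate 2 of days 21 to 24, the log2 fold changes of MSTRG.4940 and MSTRG.20388 were 2.47 and 3.28, against 2.41 and 3.05 with it. The change was also larger without it for MSTRG.29907 and MSTRG.12537, and smaller for the remaining called genes. For MSTRG.30612 it fell from 10.37 to 7.81. In simulated counts of the same depth and spread, the test recovered 42% of genes changed by 2 log2 units and 2% of those changed by 1.

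Of the 9 genes that rose, 8 had means under 5 CPM in each of the 5 windows up to days 10 to 14. Levels are given as counts-per-million (CPM) on totals scaled by the trimmed mean of M-values (TMM). In bulk libraries, more cells of a type and more RNA per cell cannot be told apart.

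MSTRG.21205 stood at 11.3 and 13.6 CPM in the libraries of days 21 to 24, against 0.0748, 0 and 0.149 CPM in those of days 16 to 18. These values correspond to 136 and 220 counts at days 21 to 24 and to 1, 0 and 2 counts at days 16 to 18, so that the ratio of summed counts was 166 with a 95% counting interval of 56.4 to 809 (edgeR adjusted p 0.00689). No earlier window had a mean above 0.0761 CPM, and the adult library held 0 counts of it, which allows up to 3. This gene was thus near zero in every other group measured. It remained called without replicate 1 of days 21 to 24 but not without replicate 2, and the adjusted p over all alternatives lay between 2.55e-05 and 0.225. Its fitted log2 fold change was 7.18, and 7.99 without replicate 3 of days 16 to 18.

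MSTRG.30172 had 8.99 and 16.4 CPM at days 21 to 24, against 0.299, 1.11 and 0.223 CPM at days 16 to 18 (log2 fold change 4.53, edgeR adjusted p 0.00869). MSTRG.25230 had 8.33 and 15.8 CPM at days 21 to 24, against 0.673, 0.475 and 0.223 CPM at days 16 to 18, a log2 fold change of 4.69 (adjusted p 0.00869). MSTRG.4061 had 7.74 and 9.77 CPM at days 21 to 24, against 0.224, 0.317 and 0.817 CPM at days 16 to 18, a log2 fold change of 4.24 (adjusted p 0.0461). The groups did not overlap for any of the 3, and their highest mean in a window up to days 10 to 14 was 1.18 CPM. Among the 3, MSTRG.30172 alone had been called higher at days 10 to 14 than on days 1 and 2 (log2 fold change 2.53, edgeR adjusted p 0.00716). In the adult library these genes stayed low, at 1.23 CPM for MSTRG.30172, 2.90 CPM for MSTRG.25230 and 1.00 CPM for MSTRG.4061. The log2 fold change of MSTRG.30172 was 5.55 without replicate 2 of days 16 to 18, and that of MSTRG.4061 was 4.97 without replicate 3.

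Changes of MSTRG.20388, MSTRG.17682 and MSTRG.4940 were smaller. MSTRG.20388 averaged 7.64 ± 1.80 CPM (SD, n = 2) at days 21 to 24 and 0.912 ± 0.223 CPM (SD, n = 3) at days 16 to 18, with a log2 fold change of 3.05 (edgeR adjusted p 0.0261). MSTRG.17682 averaged 13.8 ± 6.49 CPM (SD, n = 2) at days 21 to 24 and 1.67 ± 0.446 CPM (SD, n = 3) at days 16 to 18, with a log2 fold change of 3.04 (edgeR adjusted p 0.0461). Of these, only MSTRG.17682 had already been called higher at days 10 to 14 than on days 1 and 2 (log2 fold change 1.81, edgeR adjusted p 0.00751). MSTRG.4940 had 14.8 and 13.8 CPM at days 21 to 24, against 2.17, 3.64 and 2.23 CPM at days 16 to 18 (log2 fold change 2.41, adjusted p 0.0116), and its means over the 5 earlier windows were flat, between 2.00 and 3.53 CPM. The adult library held 1.00, 0.781 and 4.58 CPM of MSTRG.20388, MSTRG.17682 and MSTRG.4940, each below days 21 to 24.

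MSTRG.29907 and MSTRG.30612 differed from the other genes that rose in that the adult level exceeded the mean of either late window. MSTRG.29907 had 21.6 and 17.7 CPM at days 21 to 24, against 3.96, 4.67 and 6.61 CPM at days 16 to 18 (log2 fold change 1.95, adjusted p 0.0332). Its means were 8.56 CPM on day 1, 12.3 CPM on day 2, 11.9 CPM on days 3 to 4, 12.3 CPM on days 6 to 8 and 9.48 CPM on days 10 to 14, and it stood at 24.0 CPM in the adult. Days 16 to 18 were the low point of this gene. MSTRG.30612 had 8.08 and 87.4 CPM at days 21 to 24, where the libraries differed widely, against 0.0748, 0 and 0 CPM at days 16 to 18. The libraries of days 6 to 8 had held 0 to 11.2 CPM of MSTRG.30612 (mean 4.38), the highest of them above the lower library of days 21 to 24. Days 16 to 18 held 1 count of it in all, and the ratio of summed counts was 2110 with a 95% counting interval of 379 to 83600, which covers counting error only (edgeR adjusted p 0.0461). The fitted log2 fold change was 10.37. It was 7.81 when replicate 2 of days 21 to 24 was left out, 11.25 when their replicate 1 was, and 12.12 in the absence of replicate 1 of days 16 to 18. The adult library held 70.0 CPM of MSTRG.30612. This call was lost without replicate 2 of days 21 to 24, as were the other 10.

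Both genes that fell had been expressed throughout. MSTRG.26876 had 35.7 and 23.6 CPM at days 21 to 24, against 103, 115 and 84.5 CPM at days 16 to 18, a log2 fold change of -1.77 (adjusted p 0.00869). Its means were 55.4 CPM on day 1, 52.6 CPM on day 2, 68.0 CPM on days 3 to 4, 76.3 CPM on days 6 to 8 and 74.4 CPM on days 10 to 14, so that days 21 to 24 were the lowest and days 16 to 18 the highest of the windows. The adult level, 28.9 CPM, lay within the range of days 21 to 24. MSTRG.12537 had 0.916 and 1.24 CPM at days 21 to 24, or 11 and 20 counts, against 4.04, 5.54 and 4.90 CPM, or 54, 70 and 66 counts, at days 16 to 18 (log2 fold change -2.15, adjusted p 0.0129). It had been called higher at days 10 to 14 than on days 1 and 2 (log2 fold change 1.43, adjusted p 0.000157), with a mean of 6.12 CPM at days 10 to 14, and stood at 4.58 CPM in the adult.

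**Figure D1:**
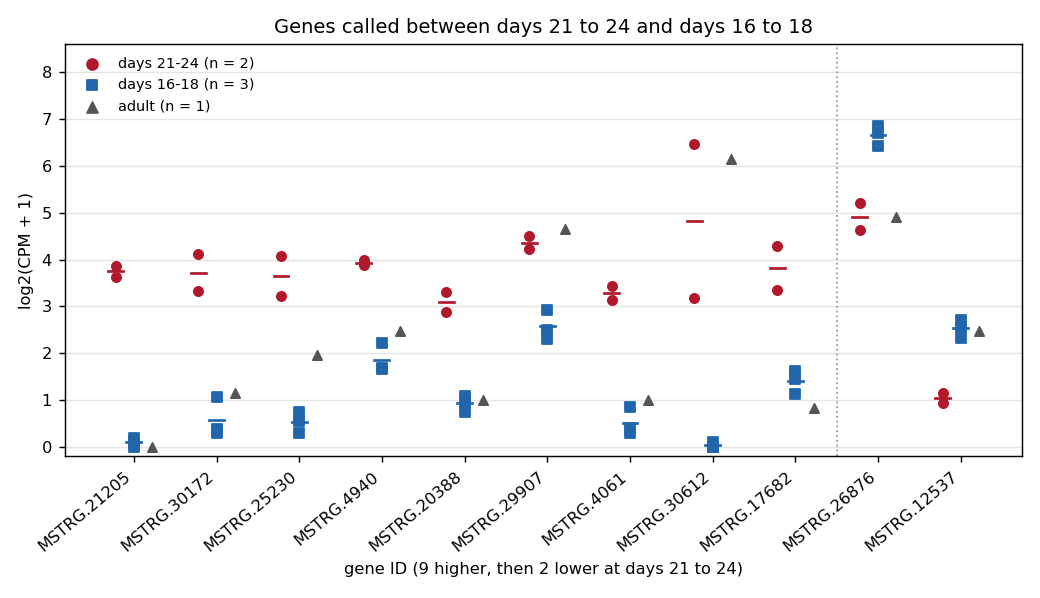
Levels, as log2(CPM + 1), of the 11 genes called between days 21 to 24 (circles, n = 2) and days 16 to 18 (squares, n = 3), with the adult library (triangle, n = 1); each point is a library and each bar the mean of the log values. The libraries of both windows are separated for every gene, and MSTRG.30612 shows the widest gap between replicates of days 21 to 24.

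Many more genes separated the libraries of both windows without passing the test. The 2 libraries of days 21 to 24 lay both above all 3 of days 16 to 18 for 3746 genes (15.6% of 23995) and both below them for 3923 (16.3%), together 7669 genes (32.0%). With 2 libraries against 3, a sizeable share of unchanged genes separates completely by chance alone. That share was not taken off, so these numbers do not count changed genes. The lists drawn from them may hold such genes too. Separated genes with at least a 2-fold ratio of means and at least 10 CPM on the higher side are listed as higher or lower. They were 299 higher genes (1.25% of all tested, 3.01% of the 9945 genes that reach 10 CPM in either late window) and 156 lower genes (0.650% and 1.57%). A further 1597 higher and 1437 lower genes met the other criteria with a ratio below 2. The last gene inside the limit on the higher side was MSTRG.16999, at a ratio of 2.0005, and the nearest one outside was MSTRG.15146, at 1.9952. On the lower side MSTRG.22313 lay just inside, at 2.0038, and MSTRG.1014 just outside, at 1.9993. The late windows chose these genes, so their late levels are a description and were not tested as lists.

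The median log2 ratio of means was 1.45 for the 299 higher genes and -1.37 for the 156 lower genes. A ratio of at least 4 was found for 89 higher and 24 lower genes, and one of at least 16 for 22 and 5. Summed over the list, the higher genes held 30220 CPM at days 21 to 24 and 9398 CPM at days 16 to 18, and the lower genes held 4231 CPM at days 21 to 24 and 11160 CPM at days 16 to 18. A single gene, MSTRG.16216, held 5960.5 CPM of the sum of the higher genes at days 21 to 24. The edgeR test called 7 of the 299 and 1 of the 156. The other 3 called genes, MSTRG.20388, MSTRG.4061 and MSTRG.12537, did not reach 10 CPM. DESeq2 called 36 higher and 14 lower genes of the lists. Without replicate 3 of days 16 to 18 the lists held 533 and 261 genes, and without replicate 1 of days 21 to 24 they held 594 and 277. They held 255 and 166 without replicate 2 of days 21 to 24. Without replicate 1 of days 16 to 18 they held 293 and 171, and without their replicate 2 they held 312 and 164. Fewer libraries are separated more easily, so a longer list is partly given in advance.

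**Figure D2:**
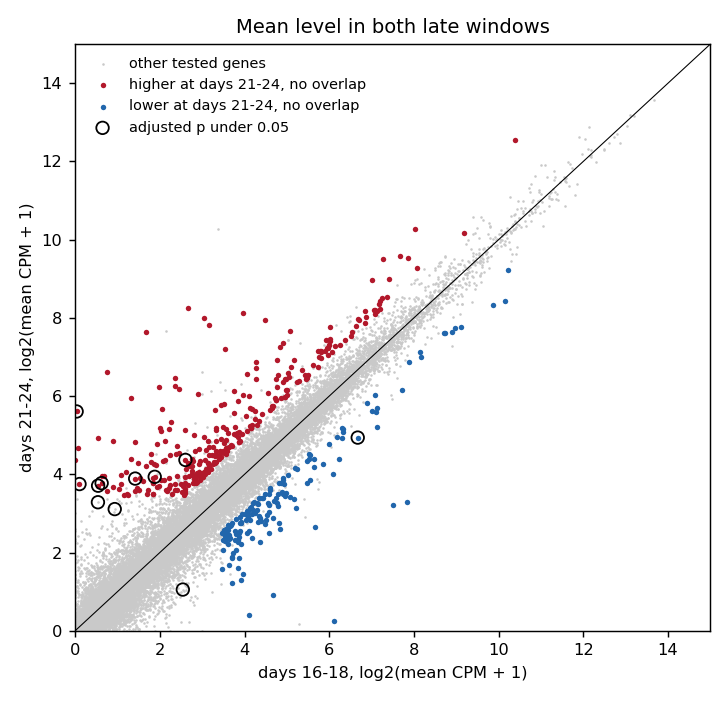
Mean level at days 21 to 24 (vertical) against days 16 to 18 (horizontal), as log2(mean CPM + 1), for all 23995 tested genes. The 299 higher genes lie above the diagonal and the 156 lower genes below it; open circles mark the 11 genes with an edgeR adjusted p under 0.05, most of which lie among the low to moderate levels.

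The most abundant of the higher genes was MSTRG.16216, at 5245 and 6676 CPM at days 21 to 24, against 937, 956 and 2117 CPM at days 16 to 18. At days 10 to 14 the same gene had 4049 and 4134 CPM in replicates 2 and 3 but 49.3 and 93.3 CPM in replicates 4 and 5. Its adjusted p was 0.863. MSTRG.4693 had 1128 and 1356 CPM at days 21 to 24, against 342, 188 and 254 CPM at days 16 to 18 (edgeR adjusted p 0.220, DESeq2 adjusted p 0.0287). Its means in the earlier windows were 8.49, 52.5, 47.9, 66.6 and 81.8 CPM in order of time, and the adult library held 183 CPM, so the level at days 21 to 24 was the highest measured. MSTRG.16999 had 964 and 1351 CPM at days 21 to 24, against 535, 517 and 684 CPM at days 16 to 18 (adjusted p 0.608). MSTRG.19914 had 730 and 793 CPM at days 21 to 24, against 168, 233 and 207 CPM at days 16 to 18 (edgeR adjusted p 0.773, but 0.017 in a fit of only the 5 late libraries), and 798 CPM in the adult. Of these 4 genes, MSTRG.19914 alone was as abundant in the adult as at days 21 to 24.

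The largest fitted log2 fold changes on the higher side belonged to genes almost silent at days 16 to 18. Besides MSTRG.30612 and MSTRG.21205, they were MSTRG.15952, MSTRG.14243 and MSTRG.34341. MSTRG.15952 had 12.9 and 26.2 CPM at days 21 to 24 whereas all 3 libraries of days 16 to 18 had 0 counts, so that it was at least 270-fold higher when that earlier window is given 3 counts in all (edgeR adjusted p 0.509). MSTRG.14243 had 28.1 and 21.0 CPM at days 21 to 24, against 0.150, 0 and 0 CPM at days 16 to 18, a ratio of summed counts of 474 with a 95% counting interval of 131 to 3920 (edgeR adjusted p 0.393). Both genes were uneven between the libraries of days 10 to 14, with 0.437, 8.27, 0.0759 and 0 CPM of MSTRG.15952 and 15.3, 23.0, 0.0759 and 0 CPM of MSTRG.14243 in replicates 2 to 5. In the adult they stood at 26.9 and 67.0 CPM, above every library of days 16 to 18. In a fit of only the 5 late libraries both passed the test, with edgeR adjusted p of 0.0227 for MSTRG.15952 and 0.00262 for MSTRG.14243.

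MSTRG.34341 belonged to a run of closely numbered IDs in which 7 genes were on the higher list, namely MSTRG.34341, MSTRG.34343, MSTRG.34344, MSTRG.34345, MSTRG.34347, MSTRG.34348 and MSTRG.34349. The run was picked out after its values were seen. Inside its range, MSTRG.34342 went the other way, with 1.33 and 0.989 CPM at days 21 to 24, against 5.31, 5.54 and 4.83 CPM at days 16 to 18 (log2 fold change -2.17, edgeR adjusted p 0.865). MSTRG.34346 and, just before the run, MSTRG.34340 had means of 0.962 and 0.896 CPM at days 21 to 24 and 0 counts at days 16 to 18, too low for the list. The files give no position for these IDs, so whether they are neighbouring genes or pieces of the same gene cannot be told. Each of the 7 was abundant in the adult, between 149 and 4254 CPM. Together they summed to 761 and 1602 CPM at days 21 to 24, against 51.6, 18.4 and 13.5 CPM at days 16 to 18 and 12062 CPM in the adult. As the mean of log2(CPM + 1) over the 7 genes, the run stood at 1.98 ± 0.88 (SD, n = 2) on day 1, 4.82 ± 1.36 (n = 2) on day 2, 3.14 ± 1.91 (n = 6) on days 3 to 4 and 4.37 ± 1.59 (n = 6) on days 6 to 8. It was 4.51 ± 0.89 (n = 4) on days 10 to 14, 1.83 ± 0.65 (n = 3) on days 16 to 18 and 6.95 ± 0.79 (n = 2) on days 21 to 24, against 10.04 in the adult. The values of days 16 to 18 were thus as low as those of day 1. Single libraries of the middle windows came close to or within the range of days 21 to 24, with 6.22 in replicate 4 of days 3 to 4 and 7.18 in replicate 1 of days 6 to 8, and the edgeR adjusted p of the 7 genes lay between 0.368 and 0.589. DESeq2 called MSTRG.34341 (adjusted p 0.0323), gave no adjusted p for MSTRG.34343 and MSTRG.34345, and did not call the others of the run. The fitted log2 fold change of MSTRG.34341 was 7.15, and 5.75 or 7.84 when replicate 2 or replicate 1 of days 21 to 24 was left out.

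**Figure D3:**
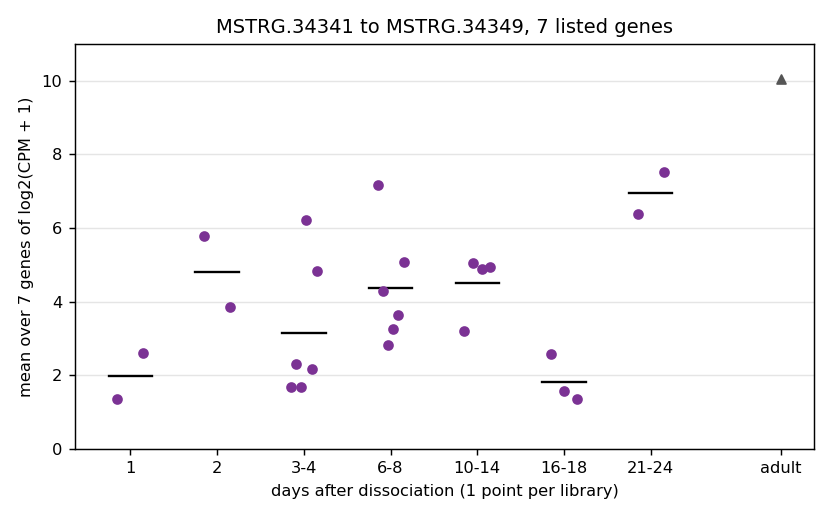
Mean of log2(CPM + 1) over the 7 listed genes from MSTRG.34341 to MSTRG.34349 in each library by days after dissociation; bars are window means and the triangle is the adult library. Days 16 to 18 lie at 1.34 to 2.57, days 21 to 24 at 6.39 and 7.51 and the adult at 10.04.

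Closely numbered IDs were common among the higher genes. Of the 299, 58 (19.4%) had another listed higher gene within 2 ID numbers, against 242 (2.51%) of the other 9646 genes of at least 10 CPM. Of the 156 lower genes, 13 (8.33%) had another within 2 numbers, against 153 (1.56%) of the other 9789 genes. Further runs of at least 3 were MSTRG.31899 to MSTRG.31902 and MSTRG.32893 to MSTRG.32895 among the higher genes, and MSTRG.25016 to MSTRG.25018 among the lower ones. In the run of lower genes, MSTRG.25018 had 37.1 and 32.8 CPM at days 21 to 24, against 72.8, 85.0 and 77.9 CPM at days 16 to 18 (adjusted p 0.850), and all 3 had been called higher at days 10 to 14 than on days 1 and 2. The adult library held 0.446 to 1.12 CPM of these 3 genes. Because a gene can be split over several IDs, the lists count IDs rather than separate genes.

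Of the 5 lower genes of largest fitted difference, all but MSTRG.19997 had higher means on days 10 to 14 than on day 1 or day 2. MSTRG.17236 had 7.49 and 10.2 CPM at days 21 to 24, against 228, 362 and 94.6 CPM at days 16 to 18 (edgeR adjusted p 0.209, DESeq2 adjusted p 4.96e-05). It had been called higher at days 10 to 14 than on days 1 and 2 (log2 fold change 4.22, edgeR adjusted p 0.000322), and stood at 43.9 CPM in the adult. MSTRG.2192 had 9.57 and 6.99 CPM at days 21 to 24, against 129, 261 and 148 CPM at days 16 to 18 (edgeR adjusted p 0.563, but 0.0173 in a fit of only the 5 late libraries), and 1.12 CPM in the adult. It too had been called higher at days 10 to 14 (log2 fold change 7.76, edgeR adjusted p 0.000643). MSTRG.4191 had 0 and 0.371 CPM at days 21 to 24, against 65.6, 135 and 2.67 CPM at days 16 to 18 (edgeR adjusted p 0.553, DESeq2 adjusted p 0.0257). Its neighbour in number, MSTRG.4190, had 0.333 and 1.42 CPM at days 21 to 24, against 23.9, 44.3 and 5.65 CPM at days 16 to 18 (edgeR adjusted p 0.622, DESeq2 adjusted p 0.267). MSTRG.19997 had 0.333 and 0.309 CPM at days 21 to 24, against 12.3, 35.1 and 1.11 CPM at days 16 to 18 (edgeR adjusted p 0.509, DESeq2 adjusted p 0.0257). In these last 3 genes replicate 3 of days 16 to 18 was the lowest of its window. Replicate 4 of days 10 to 14, with the same sample set label, was also the lowest there, at 2.81, 3.87 and 5.92 CPM. The earlier libraries with that set label were not the lowest of their windows. Replicate 3 of days 3 to 4 held 147, 19.3 and 71.0 CPM, and replicate 3 of days 6 to 8 held 57.4, 23.2 and 42.3 CPM.

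The most abundant lower genes were MSTRG.22313, MSTRG.13487, MSTRG.21084 and MSTRG.27656, and none of them passed the test (adjusted p 0.557 to 0.919). MSTRG.22313 averaged 594 ± 271 CPM (SD, n = 2) at days 21 to 24 and 1190 ± 191 CPM (SD, n = 3) at days 16 to 18. MSTRG.13487 averaged 342 ± 42.1 CPM (SD, n = 2) at days 21 to 24 and 1135 ± 362 CPM (SD, n = 3) at days 16 to 18. Both had accumulated over the preceding windows, as they were called higher at days 10 to 14 than on days 1 and 2, by 3.84 and 6.25 on the log2 scale (edgeR adjusted p 0.000821 and 3.45e-05), and both were low in the adult, at 90.6 and 30.0 CPM. MSTRG.27656 averaged 218 ± 79.8 CPM (SD, n = 2) at days 21 to 24 and 555 ± 245 CPM (SD, n = 3) at days 16 to 18. Its means had been 5054 ± 3593 CPM (SD, n = 6) at days 3 to 4 and 6114 ± 5919 CPM (SD, n = 6) at days 6 to 8. The libraries of days 6 to 8 were uneven, from 597 to 12991 CPM. MSTRG.21084 had 342 and 303 CPM at days 21 to 24, against 667, 514 and 1595 CPM at days 16 to 18, with 1118 CPM in the adult. Its log2 fold change of -1.52 was -0.87 when replicate 3 of days 16 to 18 was left out.

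The earlier course of the listed genes was read from libraries that did not choose them, by comparing days 10 to 14 with days 1 and 2 in the same edgeR model. The lower genes had to reach 10 CPM at days 16 to 18, whose libraries correlated at 0.924 to 0.957 with those of days 10 to 14. The higher genes had to reach it at days 21 to 24, whose libraries correlated at 0.903 to 0.940 with those of days 10 to 14. Part of the share called higher in either list may therefore follow from the choice of the genes. Over all tested genes, 4220 (17.6%) were called higher and 4266 (17.8%) lower at days 10 to 14, and among the 9945 genes of at least 10 CPM the numbers were 2539 (25.5%) and 1852 (18.6%). Of the 156 genes that were lower at days 21 to 24, 80 (51.3%) had been called higher and 12 (7.69%) lower at days 10 to 14, with a median log2 fold change of 1.56 against 0.09 over the 9945 genes. Of the 299 higher genes, 98 (32.8%) had been called higher and 22 (7.36%) lower, with a median log2 fold change of 0.88. Upward calls in the earlier period thus outnumbered downward ones in both lists, in a larger share of the list that was lower at the end; whether the lists differ in this was not tested.

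The levels at days 10 to 14 were also set against both late windows. Among the higher genes, the mean at days 10 to 14 was between the 2 late means for 189, below both for 90 and above both for 20. Among the lower genes it was between them for 87, above both for 59 and below both for 10. Among all 9945 genes of at least 10 CPM it was between them for 3344, below both for 3254 and above both for 3347. The 2-fold gap that the lists require leaves more room between the late means than most genes have. Days 21 to 24 held the highest mean of all 7 windows for 247 of the 299 higher genes, and in 129 it exceeded every other window at least 2-fold and in 10 at least 8-fold. For 77 of the 299, days 16 to 18 were the lowest of the 7 windows. Among the 156 lower genes, days 16 to 18 held the highest mean for 86, and for 30 days 21 to 24 lay at least 2-fold below every other window. The choice of the genes favours these extremes. Among all 9945 genes, days 21 to 24 were the highest window for 2246, with 170 at least 2-fold and 12 at least 8-fold above every other, and at least 2-fold below every other for 34. Days 16 to 18 were the lowest window for 1331 of the 9945 and the highest for 1473.

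**Figure D4:**
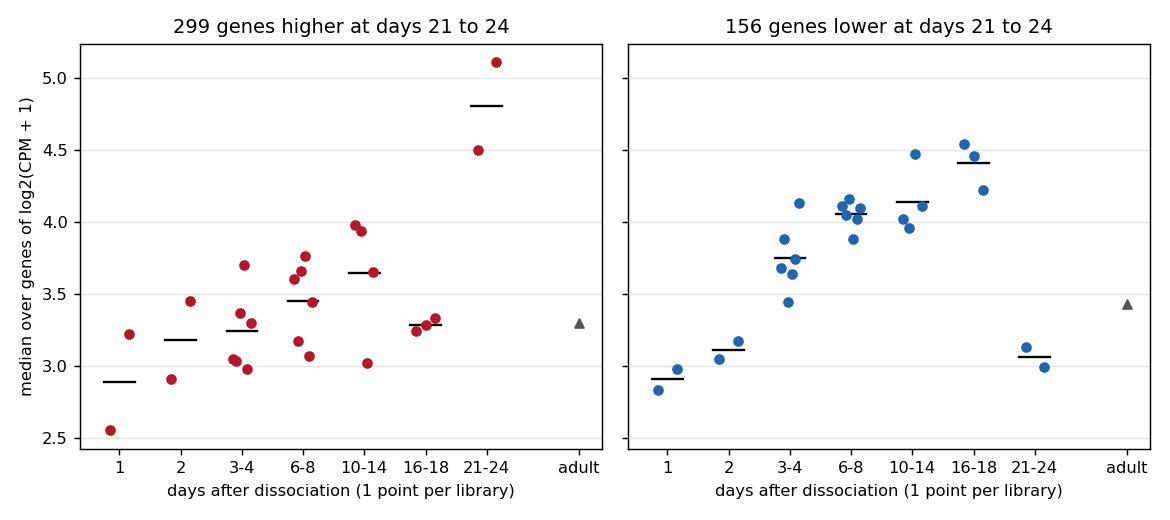
Median over genes of log2(CPM + 1) in each library by days after dissociation, for the 299 genes higher (left) and the 156 genes lower (right) at days 21 to 24; bars are window means and the triangle is the adult library. The late windows chose the genes; in the windows that did not, the lower list lies at 2.83 and 2.98 on day 1 and at 3.96 to 4.47 on days 10 to 14, whereas the higher list lies at 3.02 to 3.98 on days 10 to 14.

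The adult level of the listed genes, which rests on 1 library, lay on either side of the late windows. Among the 299 higher genes, the adult level was below both late means for 173, between them for 68 and above both for 58. Among the 156 lower genes it was below both for 70, between them for 48 and above both for 38. Among all 9945 genes of at least 10 CPM it was below both for 5198, between them for 1033 and above both for 3714, with the same difference in room between the late means. Set against days 10 to 14, on the scale of log2(CPM + 1), the adult was at least 2-fold lower for 122 (40.8%) and at least 2-fold higher for 62 (20.7%) of the higher genes. For the lower genes the numbers were 76 (48.7%) and 26 (16.7%), against 2017 (20.3%) and 1006 (10.1%) of the 9945 genes of at least 10 CPM. Genes under 1 CPM in the adult made up 35 (11.7%) of the higher list and 19 (12.2%) of the lower list, against 146 (1.47%) of the 9945.

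The courses differed with the adult level. The groups were formed after the values were seen and are described by medians of log2(CPM + 1). The 58 higher genes with an adult level above both late windows had medians of 4.03 on day 2, 3.97 on days 10 to 14, 2.86 on days 16 to 18, 4.70 on days 21 to 24 and 6.08 in the adult. In each group the order of the late windows and the adult follows from how it was formed, and only the levels up to days 10 to 14 took no part in that choice. The 173 higher genes with an adult level below both windows had medians of 2.96 on day 1, 4.06 on days 10 to 14, 3.77 on days 16 to 18, 5.13 on days 21 to 24 and 2.36 in the adult. Among the lower genes, the 70 with an adult level below both late windows had medians of 2.05 on day 1, 4.14 on days 10 to 14, 4.58 on days 16 to 18, 3.21 on days 21 to 24 and 2.14 in the adult. The 38 lower genes with an adult level above both windows had a median of 4.83 on day 1, against 4.69 over the 9945 genes of at least 10 CPM. They stood at 5.34 on days 3 to 4, 4.15 on days 16 to 18, 2.75 on days 21 to 24 and 5.43 in the adult.

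**Figure D5:**
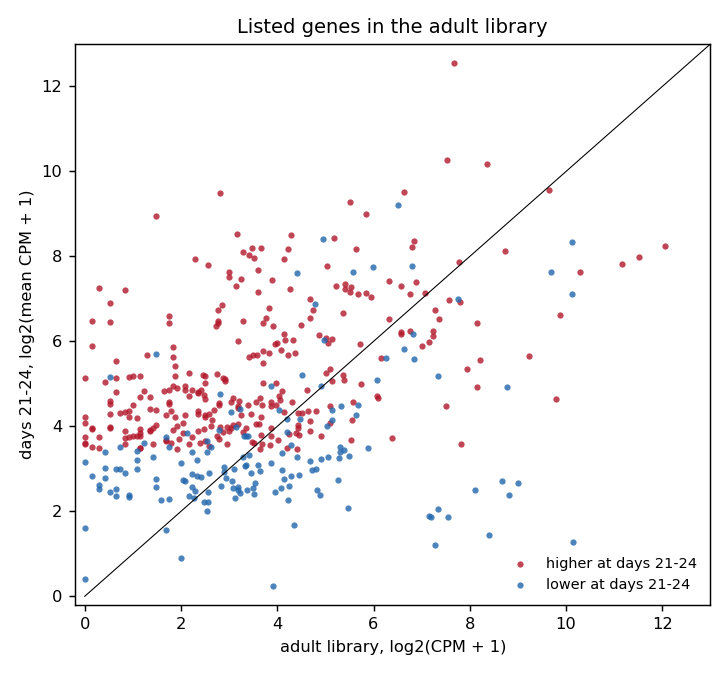
Level at days 21 to 24, as log2(mean CPM + 1), against the level in the adult library, as log2(CPM + 1), for the 299 higher and 156 lower genes. Most higher genes lie above the diagonal, and the genes at the far right below it include the run from MSTRG.34341 to MSTRG.34349.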

How the data were processed

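The authors deposited raw read counts for each gene ID in a separate table per library. Per the labels' protocols, RNA was extracted with Trizol and libraries were made with the SENSE mRNA-Seq kit (Lexogen). The submitters' processing notes name Trimmomatic 0.36, HISAT2, StringTie, featureCounts, DESeq2 and Bowtie2; their roles, the genome build and the strand setting are not given in the sources used here, so overlapping and near-identical genes could not be separated.

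Counts were tested with the quasi-likelihood F test of edgeR 4.0.16 under R 4.3.3 with limma 3.58.1 (25 libraries, time window as the factor, TMM scaling, filterByExpr, glmQLFit with robust = TRUE, common dispersion 0.173), which kept 23995 of 35307 IDs. Tests are two-sided with Benjamini-Hochberg adjustment over all genes tested. DESeq2 1.42.0 was an alternative. Errors are SDs over libraries, since this F test gives no standard error. The adult library entered no test; its total was scaled with TMM (factor 0.788). Counting intervals and the limit of 3 counts cover counting error only. The procedure was tested on simulated counts of 23995 genes.

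Named genes were all genes called in the late comparison, the 5 of largest fitted fold change in each direction on the lists, and the 4 of highest level in each; the 6 other IDs of the run at MSTRG.34341, the other runs and the genes next to the fold limit were added after their values were seen. The comparison, lists and rules were chosen with earlier results of these data known.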

Additional observations from a re-analysis of the deposited data

Results flagged for a closer look

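Dixon's test was applied to the extreme library of each window with 4 to 6 libraries, for the named genes that reached 10 CPM there, for the run at MSTRG.34341 and for both lists. It singled out a library 9 times in 63 tries, and several of the 9 have a gene or library in common. On normal values chance alone would single out a library in about 1 of 20 tries. That share is no baseline for the 9, because the limit of 10 CPM favours such libraries. MSTRG.15952 at days 3 to 4 and MSTRG.29907 at days 10 to 14 reached it only in the library singled out. Replicate 4 of days 3 to 4 was high for 3 genes: it held 241 CPM of MSTRG.34341 against 0.900 to 28.8 CPM in the other libraries of its window, 11.2 CPM of MSTRG.15952 against 0 to 0.752 CPM, and 289 CPM of MSTRG.19914 against 38.1 to 46.2 CPM. Replicate 1 of days 6 to 8 held 416 CPM of MSTRG.34341 against 7.18 to 31.7 CPM. Replicate 3 of days 10 to 14 held 646 CPM of MSTRG.19914 against 75.2 to 168 CPM, and 14.3 CPM of MSTRG.29907 against 7.60 to 8.31 CPM. MSTRG.16999 had 1019 CPM in replicate 4 of days 6 to 8 against 339 to 559 CPM, and 1002 CPM in replicate 2 of days 10 to 14 against 452 to 516 CPM. The mean of log2(CPM + 1) of the 7 genes of the run was 3.19 in replicate 2 of days 10 to 14 against 4.89 to 5.04 in the others.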

How the results depend on the processing

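The number of genes called at days 21 to 24 against days 16 to 18 depended on the model. It was 11 (9 higher, 2 lower), and also 11 under DESeq2 size factors, upper-quartile scaling, no filter, robust = FALSE and a log2 fold change of at least 1, with 10 genes shared under no filter and all 11 under the others. DESeq2 gave 80 (53 higher, 27 lower), a mean of at least 5 CPM gave 1 (0 and 1) of 12953 genes tested, and a fit of only the 5 late libraries gave 64 (51 and 13), of which 9 were among the 11. Leaving out 1 library gave 0 to 7 genes in all, 0 to 6 higher and 0 to 2 lower. With the sample set number as a replicate block, 1 gene was called (1 higher, 0 lower) over 25 libraries, and 820 (517 higher, 303 lower) over the 4 late libraries of sets 1 and 2. The labels do not say what a set number stands for, so the samples were not treated as paired. Deviations from the window means correlated at -0.187 for set 1 and 0.042 for set 2. At days 21 to 24 the deviations of the 2 libraries mirror each other, so these values cannot show whether the sets are shared. The lists of separated genes (299 higher, 156 lower) held 911 and 834 genes at a minimum of 1 CPM, 109 and 31 at 50 CPM, 683 and 448 at 1.5-fold, 89 and 24 at 4-fold, and 255 to 594 higher and 164 to 277 lower genes when 1 library was left out. The median log2 ratio of the adult to days 10 to 14 was -0.89 for the lower genes, -1.20 with the adult on its unscaled total and -0.59 with a pseudocount of 5 CPM. For the higher genes it was -0.62 and stayed between -0.88 and -0.40. The shares called at days 10 to 14 against days 1 and 2 stayed between 28.1% and 37.5% (higher) for the higher genes and between 49.4% and 54.5% (higher) for the lower genes; a fit of only the 5 late libraries cannot give them. Of the called genes' values under the alternatives, 101 kept and 56 lost the call. Of those of the named genes that were not called, 219 stayed so and 20 gained the call, under DESeq2, in the fit of only the 5 late libraries or with the replicate block over 4 libraries. None of the named genes changed direction. Over all genes, the median log2 fold change was -0.026 under TMM and -0.062 under upper-quartile scaling. Calls with 1 library left at days 21 to 24 assume that it varies like the other windows.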
